A study of Homo sapiens with 10 samples.

Results

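Surface and serum antigens of ovarian tumours were described here at gene and transcript level in 7 ovarian cancer cell lines read on nanopore sequencers. The antigen genes were MUC16, WFDC2, SLPI, MSLN, FOLR1, EPCAM, MUC1, SLC34A2 and VTCN1. Each was found by its symbol in the deposited transcript annotation, and the counts of its transcripts were summed. These were 9 of 57110 gene identifiers, with 45 of 99493 transcripts, and none of the 9 shared its identifier with another gene. All 45 transcripts had the same ends in GENCODE 29.

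A single PromethION library was made from each of COV362, COV504, SK-OV-3, OVKATE, OVMANA and OVTOKO. IGROV-1 had 2 libraries from the PromethION and 2 from the smaller MinION instrument. All 10 libraries came from total RNA and were made with a single ligation kit, and the labels name no treatment, engineered allele or time point. The labels give no tumour histology, and they do not say whether libraries of a line came from separate cultures, so p-values measure the spread between the IGROV-1 libraries, which may be technical.

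Most of these genes encode proteins that sit on the surface of epithelial cells or are secreted by them, which is why they serve as blood tests and as targets of antibodies and drug conjugates. MUC16 carries the CA125 epitope, and WFDC2 encodes the protein HE4, a second serum marker. SLPI is a secreted protease inhibitor built, like HE4, from whey acidic protein domains. Mesothelin (MSLN) and folate receptor alpha (FOLR1) are held in the membrane by a lipid anchor, and MUC16 is a binding partner of mesothelin. EPCAM is an adhesion molecule of epithelia, MUC1 a membrane mucin, SLC34A2 the sodium-phosphate cotransporter NaPi2b, and VTCN1 the B7 family ligand B7-H4.

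Levels are in CPM, the counts of a gene scaled to a common library total, and they are not divided by transcript length, so they are compared between libraries and not between genes. Library totals lay between 1729782 and 3666224 counts. A count of 0 allows up to 3 counts, which was 1.18 to 1.73 CPM in a library of a single-library line and 0.643 CPM over both IGROV-1 PromethION libraries. Intervals and these limits cover counting error only. A ratio given as "at least" sets the measured level of 1 side against this limit and leaves out the counting error of the measured level. The transcription factor PAX8, listed among the epithelial carcinoma markers, was found in all 10 libraries, at 84.1 to 339.8 CPM. Of 11 epithelial carcinoma markers, KRT7, CDH1, ESRP1 and GRHL2 were at 0 in all 4 IGROV-1 libraries. ESRP1 and GRHL2 were at 0 in OVTOKO and SK-OV-3. GRHL2 was at 0 in OVMANA too, and CDH1 was at only 1.57 CPM in COV362. The summed epithelial markers were lowest in OVTOKO (789.7 CPM) and highest in COV504 (9687 CPM), with 836.8 to 1716 CPM in the IGROV-1 libraries. The 6 leukocyte markers measured summed to at most 16.3 CPM in any library, and the 5 endothelial markers to at most 27.6 CPM. The 6 fibroblast markers summed to 435.3 CPM in COV362, mostly COL1A2, to 363.6 CPM in SK-OV-3 and to 120.1 CPM in COV504, against 0.578 to 30.2 CPM in the other libraries. In SK-OV-3 these were COL1A1 (219.3 CPM), COL1A2 (57.2), LUM (52.7) and COL3A1 (33.9), and in COV504 mostly COL1A1 (81.4). DCN, a fibroblast proteoglycan, had at most 1 count in any library. The 7 mesenchymal markers summed to 8909 CPM in SK-OV-3, 3720 in OVTOKO and 3128 in COV362. They summed to 876.3 to 1798 CPM in the remaining 3 lines, and to 501.3 to 692.8 CPM in the IGROV-1 libraries. VIM was the largest of them except in OVKATE, where SPARC (843.3 CPM) lay above VIM (351.2 CPM). The part of these marker differences in the antigen levels below was not tested.

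The mesothelin and MUC1 coding sequences differ between transcripts by short exon extensions. The windows below, read from the GENCODE 29 transcripts, show them because the transcript counts separate these forms. Capitals mark the added bases, between 30 bases of shared coding sequence on each side. The 24 added bases (8 codons) of MSLN lie at chr16:766644-766667 on the plus strand of GRCh38. The 27 added bases (9 codons) of MUC1 lie at chr1:155192284-155192310 on the minus strand, at the start of the second coding exon.
MSLN ENST00000382862: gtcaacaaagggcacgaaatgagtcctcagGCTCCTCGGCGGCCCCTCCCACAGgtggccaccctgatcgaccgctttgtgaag
MSLN ENST00000566549: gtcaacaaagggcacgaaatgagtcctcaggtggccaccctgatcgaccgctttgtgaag
MUC1 ENST00000612778: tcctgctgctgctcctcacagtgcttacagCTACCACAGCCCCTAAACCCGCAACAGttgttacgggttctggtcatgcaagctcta
MUC1 ENST00000620103: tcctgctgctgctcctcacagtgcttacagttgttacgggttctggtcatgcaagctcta

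MUC1 also carries a variable tandem repeat, whose 60-base unit encodes the densely O-glycosylated part of the protein. The unit shown is the 60-base window that occurred most often in the coding sequence of ENST00000611571, with 19 exact copies. It had 1 exact copy in ENST00000620103 and 1 in ENST00000612778, and none in the other transcripts of the 21 listed.
MUC1 repeat unit: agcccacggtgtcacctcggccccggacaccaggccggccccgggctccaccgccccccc

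Promoter windows of 300 bases from RefSeq on GRCh38.p14 were matched by symbol for 5 of the 9 genes. Those of MUC1 and WFDC2 are printed because both genes had 100 or more counts in some lines and 0 or 1 in IGROV-1, and because the leading transcript of each starts inside its window. Capitals mark matches on either strand to the TATA box (TATAAA), the CCAAT box, the GC box (GGGCGG) and an E-box (CACCTG). The MUC1 window, chr1:155192866-155193165 on the minus strand, held 1 TATAAA, 2 CACCTG and 4 GGGCGG matches, of which the last 3 overlap in a single run. The WFDC2 window, chr20:45469503-45469802 on the plus strand, held 2 CACCTG and 2 GGGCGG matches and no TATAAA. Among 35116 RefSeq windows of this length, 11.5% held TATAAA, 34.6% CCAAT, 45.0% GGGCGG and 20.6% CACCTG. A match describes the letters only.
MUC1 promoter: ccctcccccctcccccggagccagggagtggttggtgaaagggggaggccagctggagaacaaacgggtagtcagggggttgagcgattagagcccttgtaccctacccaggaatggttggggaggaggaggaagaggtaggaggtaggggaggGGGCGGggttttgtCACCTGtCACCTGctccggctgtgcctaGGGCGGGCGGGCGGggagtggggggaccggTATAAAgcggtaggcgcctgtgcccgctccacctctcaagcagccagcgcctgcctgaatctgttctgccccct
WFDC2 promoter: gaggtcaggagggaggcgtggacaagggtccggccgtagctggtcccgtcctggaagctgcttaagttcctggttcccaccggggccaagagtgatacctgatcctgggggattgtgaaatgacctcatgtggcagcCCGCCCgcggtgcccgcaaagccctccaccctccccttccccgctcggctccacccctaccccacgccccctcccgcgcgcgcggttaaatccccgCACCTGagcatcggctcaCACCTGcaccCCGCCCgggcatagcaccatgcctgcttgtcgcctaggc

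The number of antigen genes present differed between lines. At 10 CPM or more, OVKATE and COV362 had 8 of the 9 genes, OVMANA had 7 and COV504 had 6. OVTOKO and SK-OV-3 had 3 each. In each of the 4 IGROV-1 libraries 2 genes reached 10 CPM, FOLR1 and SLC34A2. SLPI was above 10 CPM in all 6 lines other than IGROV-1, and VTCN1 was above it in OVKATE alone.

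**Figure D1:**
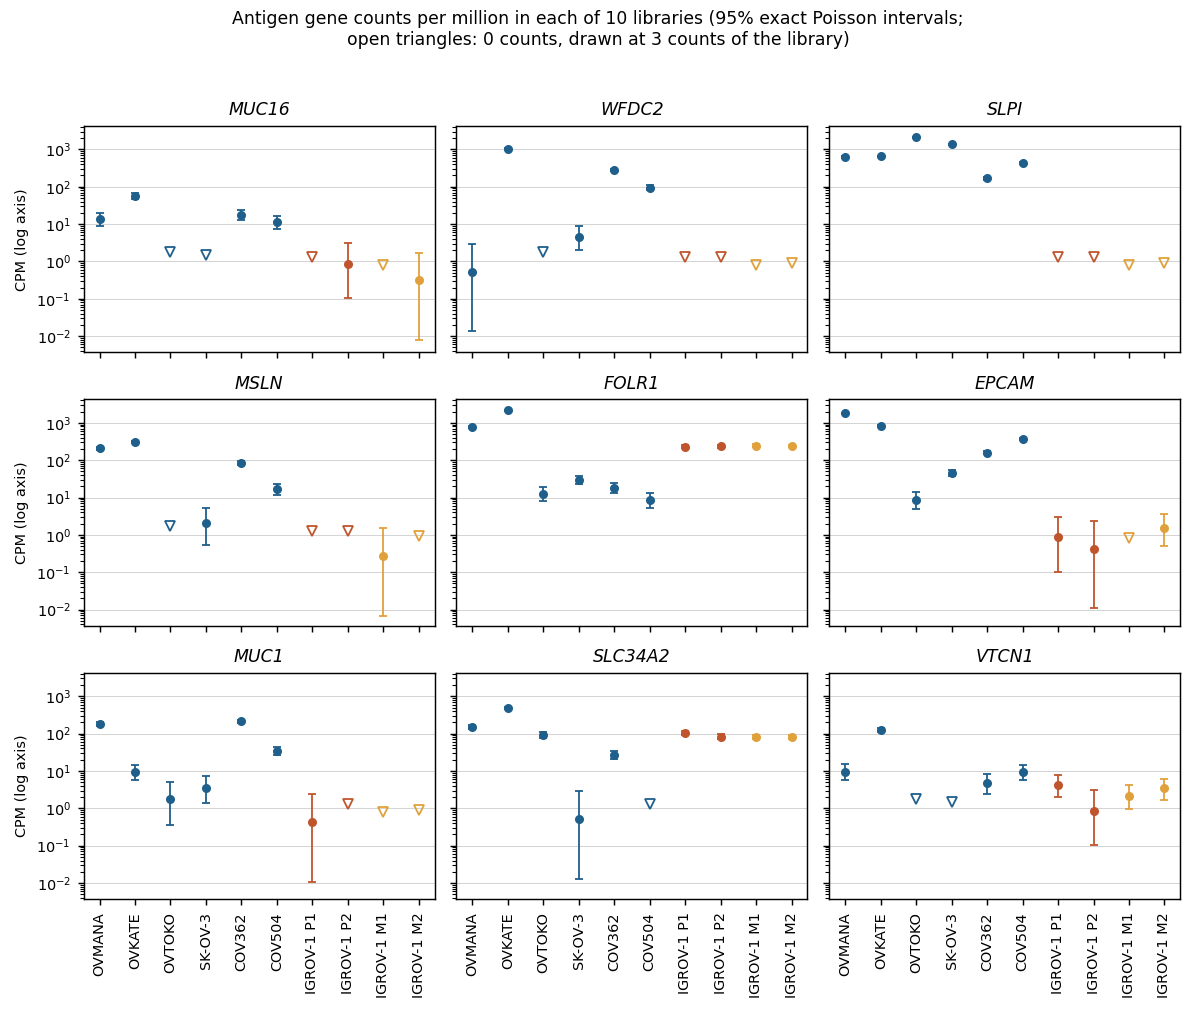
CPM (log axis) of the 9 antigen genes in each of the 10 libraries, with IGROV-1 PromethION (P) and MinION (M) libraries at the right of each panel. Points carry 95% exact Poisson intervals, and open triangles mark 0 counts at the level of 3 counts. SLPI is at 0 in all 4 IGROV-1 libraries and between 168.5 and 2083 CPM elsewhere, while FOLR1 in IGROV-1 lies between its levels in OVMANA and SK-OV-3.

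Each line was then compared with the 2 IGROV-1 PromethION libraries by edgeR's quasi-likelihood test over 13030 genes, with Benjamini-Hochberg adjustment and a threshold of 0.05. All 9 antigen genes passed the filter on low counts. A gene absent from IGROV-1 passed it through the lines where it is high and so had to differ there. In OVKATE all 9 antigen genes were called and all were higher, where 26.8% of the genes tested were called higher. In OVMANA 8 were higher and none lower (18.9% of all genes higher). In COV504 7 were higher and 2 lower (24% and 19.6% of all genes). In COV362 6 were higher and 2 lower (23.7% and 18.8%). In SK-OV-3 5 were higher and 2 lower (22% and 19.8%). In OVTOKO 2 were higher and 1 lower (18.2% and 15.9%), so its 3 of 9 antigen genes lay near the 34.1% of all genes called there. The share of all genes called in either direction was 42.5% in COV362, 43.5% in COV504, 49.2% in OVKATE, 35.4% in OVMANA and 41.8% in SK-OV-3.

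Over the 6 lines this gave 44 calls of 54, 37 higher and 7 lower. Of all genes, 18.2% to 26.8% were called higher and 15.9% to 22.4% lower in a line. The higher calls include genes at or near 0 in IGROV-1, which had to differ where they are high, and some calls on few counts, given below. All 7 lower calls were FOLR1 or SLC34A2, the only genes above 10 CPM in IGROV-1. The 6 comparisons share the same IGROV-1 libraries, and a line with 1 library has no spread of its own, so each test uses the spread between IGROV-1 replicates. The fitted log2 changes follow TMM normalization, which moved OVKATE by -0.3 and SK-OV-3 by -0.23 against plain CPM and the other lines by at most 0.08.

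Among the serum markers, MUC16 was found in 4 lines. Its level was 13.4 CPM in OVMANA, 57.4 in OVKATE, 17.2 in COV362 and 11.6 in COV504. It had 0 counts in OVTOKO and SK-OV-3, 0 and 2 counts in the IGROV-1 PromethION libraries, and 0 and 1 in the MinION libraries. OVKATE stood above all other lines, the intervals of COV362, OVMANA and COV504 overlapped one another in that order, and all 4 stood above IGROV-1. The OVKATE level was 134 times that of IGROV-1, with a counting interval of 36.3 to 1119 because IGROV-1 had 2 counts. In edgeR's test the MUC16 difference gave an adjusted p of 5.1e-05 in OVKATE, 0.00065 in COV362, 0.0018 in OVMANA and 0.0022 in COV504. MUC16 spans chr19:8848844-8981342 on the minus strand, and its single transcript in the table has 84 exons and 43816 bases, the longest of the antigen transcripts.

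WFDC2 was found at 1013 CPM in OVKATE, 284.4 in COV362, 95.2 in COV504 and 4.56 in SK-OV-3 (9 counts). It had 1 count in OVMANA and none in OVTOKO or in any of the 4 IGROV-1 libraries. The intervals of OVKATE, COV362 and COV504 were apart from each other and from all lower lines. Against IGROV-1 at 0, taken as 3 counts over the group, WFDC2 was at least 1577-fold higher in OVKATE, 443-fold in COV362 and 148-fold in COV504. In SK-OV-3 the same ratio was 7.09. The counting interval of its level was 2.08 to 8.65 CPM, so the ratio could be lower. The edgeR adjusted p-values of these 4 calls were 2.6e-06, 7.9e-06, 1.9e-05 and 0.0053. OVMANA, the line with the most EPCAM, had 1 WFDC2 count.

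SLPI lies on chromosome 20 with WFDC2, 215 kb away. It was found at 2083 CPM in OVTOKO, 1353 in SK-OV-3, 647.9 in OVKATE, 639.6 in OVMANA, 420.9 in COV504 and 168.5 in COV362. All 4 IGROV-1 libraries had 0 counts. Apart from OVKATE and OVMANA, whose intervals overlapped, each line's interval was apart from the next. Against IGROV-1 the level was at least 262-fold higher in COV362 and at least 3242-fold higher in OVTOKO, with edgeR adjusted p-values of 2.2e-06 to 1.3e-05 over the 6 lines. OVTOKO and SK-OV-3, highest for SLPI, had 2 other antigens each at 10 CPM or more, as many as IGROV-1, and both were low in its neighbour WFDC2.

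At 10 CPM or more, mesothelin was found in OVMANA, OVKATE, COV362 and COV504, where MUC16 was found too. MSLN was at 309.6 CPM in OVKATE, 207.3 in OVMANA, 83.1 in COV362 and 16.9 in COV504, each apart from the next. SK-OV-3 had 4 counts (2.03 CPM), OVTOKO had 0, and the IGROV-1 libraries had 0, 0, 1 and 0 counts. Against IGROV-1 PromethION it was at least 482-fold higher in OVKATE, 323-fold in OVMANA, 129-fold in COV362 and 26.3-fold in COV504 (edgeR adjusted p 2.9e-06, 4.7e-06, 1.5e-05 and 0.00026). The SK-OV-3 call rested on those 4 counts: its edgeR adjusted p was 0.029, lay between 0.027 and 0.082 over 9 alternatives and passed in 4 of them.

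FOLR1 separated the lines in both directions. It was at 2175 CPM in OVKATE, 778 in OVMANA, 29.9 in SK-OV-3, 18.4 in COV362, 12.7 in OVTOKO and 8.45 in COV504. The IGROV-1 libraries had 230.2 and 234.5 CPM on the PromethION and 246.8 and 242.5 on the MinION. The 4 IGROV-1 values did not overlap those of any other line. FOLR1 was higher in OVKATE (log2 change 2.92 ± 0.14, SE) and OVMANA (1.80 ± 0.15), and it was lower in SK-OV-3 (-3.19 ± 0.20), COV362 (-3.61 ± 0.21), OVTOKO (-4.11 ± 0.23) and COV504 (-4.85 ± 0.24). The edgeR adjusted p-values lay between 3.3e-06 and 4.9e-05, and each call held under all 9 alternatives. Among the 4 low lines, neighbouring intervals overlapped from SK-OV-3 to COV504.

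SLC34A2 was the other antigen present in IGROV-1. It was at 488.2 CPM in OVKATE, 154.4 in OVMANA, 92.5 in OVTOKO and 27.4 in COV362, with 1 count in SK-OV-3 and 0 in COV504. The IGROV-1 libraries had 101.7 and 83.3 CPM on the PromethION and 79.7 and 80.3 on the MinION. OVTOKO lay inside the IGROV-1 range, with a log2 change of 0.08 ± 0.19 (SE) and an edgeR adjusted p of 0.81. OVKATE was higher by 2.10 ± 0.16 (adjusted p 2.9e-05) and COV362 lower (-1.71 ± 0.21, adjusted p 0.00047). COV504 was at least 69.3-fold lower and SK-OV-3 183-fold lower with a counting interval of 32.6 to 7232. OVMANA was higher by 0.80 ± 0.18 with an adjusted p of 0.0086, a call lost with DESeq2 (adjusted p 0.2) and without MinION replicate 1.

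EPCAM spanned the lines in steps. It was at 1814 CPM in OVMANA, 817.1 in OVKATE, 365.3 in COV504, 158.3 in COV362, 45.6 in SK-OV-3 and 8.67 in OVTOKO. The IGROV-1 libraries had 2 and 1 counts on the PromethION and 0 and 5 on the MinION. No neighbouring intervals overlapped in this order. The ratio to IGROV-1 was 2823 in OVMANA (counting interval 965 to 13694) and 13.5 in OVTOKO (3.82 to 72.7). All 6 lines were called higher by edgeR, with adjusted p-values from 1.3e-06 in OVMANA to 0.012 in OVTOKO, and all held under 9 alternatives.

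MUC1 was at 211.6 CPM in COV362, 178.5 in OVMANA, 34.7 in COV504, 9.40 in OVKATE, 3.55 in SK-OV-3 (7 counts) and 1.73 in OVTOKO (3 counts). IGROV-1 had 1 count in a PromethION library and 0 in the other 3. The intervals of COV362 and OVMANA overlapped, and both stood apart from COV504 and OVKATE. OVKATE, the highest line for MUC16, MSLN, WFDC2, FOLR1, SLC34A2 and VTCN1, lay below COV362, OVMANA and COV504 for MUC1. The ratio to IGROV-1 was 988 in COV362, with a counting interval of 177 to 39087 from the single IGROV-1 count. The edgeR adjusted p was 5.5e-06 in COV362 and 5.9e-06 in OVMANA, and OVKATE (0.0017) and COV504 (7.2e-05) were also called. The SK-OV-3 call (adjusted p 0.024) was lost in 5 of 9 alternatives.

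VTCN1 was at 122.7 CPM in OVKATE and below 10 CPM in all other libraries. It was at 9.62 CPM in OVMANA, 9.34 in COV504 and 4.70 in COV362, with 0 counts in OVTOKO and SK-OV-3. The IGROV-1 libraries had 4.27 and 0.859 CPM on the PromethION and 2.18 and 3.40 on the MinION. OVKATE was higher than IGROV-1 by a log2 change of 5.25 ± 0.40 (SE; edgeR adjusted p 2.8e-05), which became 6.77 without IGROV-1 PromethION replicate 1 and 4.53 without replicate 2, with the call kept. OVMANA and COV504 passed at adjusted p-values of 0.047 and 0.049, over 18 and 21 counts. These 2 calls passed in 3 and 2 of 9 alternatives and are not firm. Their log2 changes of 1.95 and 1.76 became 1.22 and 1.04 without IGROV-1 PromethION replicate 2, with both calls lost, and 3.47 and 3.29 without replicate 1, with both kept.

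The 2 instruments were compared within IGROV-1 by edgeR over 10041 genes, of which 0.817% were called. FOLR1 and SLC34A2 were the antigen genes that passed the filter, and neither was called. FOLR1 averaged 232 ± 3.04 CPM (SD, n = 2) on the PromethION and 245 ± 3.05 (SD, n = 2) on the MinION, a log2 change of 0.03 ± 0.12 (SE) with an edgeR adjusted p of 0.92. SLC34A2 averaged 92.5 ± 13 CPM (SD, n = 2) and 80.0 ± 0.485 (SD, n = 2), a log2 change of -0.25 ± 0.15 with an edgeR adjusted p of 0.44. Neither had an unadjusted p under 0.05 (0.78 and 0.12), and DESeq2 called neither. Of their transcripts 4 were tested, at a background of 2.29% of transcripts called, and 0 were called by either tool, with unadjusted p-values of 0.13 to 0.99. FOLR1 transcript usage was not called either (edgeR adjusted p 1, unadjusted 0.99, background 5.98% of genes). These p-values do not show that the instruments act alike, and the other 7 genes had 19 counts or fewer over either pair of libraries.

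Of the 45 antigen transcripts, 16 held 5% or more of their gene's counts in a library with 20 or more counts of the gene, and 19 never reached 1 count, 15 of them MUC1 transcripts. There were 38 pairs of gene and line with 20 or more counts. In 26 of them a single transcript held 90% or more of the counts. These 26 include the pairs of MUC16 and SLPI, fixed at 100% because each gene has a single transcript in the table. The pairs under 90% were all of FOLR1, MSLN or MUC1, and these 3 genes are described in turn.

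FOLR1 has 4 transcripts in the table that share a single 771-base coding sequence and differ in where they start and in their upstream noncoding exons. ENST00000393676 starts 2518 bases downstream of ENST00000312293, in an exon that runs into the coding sequence, whereas the other 3 begin with upstream noncoding exons. The upstream group held 4.7% of FOLR1 counts in OVKATE (95% Wilson interval 4.1 to 5.4, of 4397 counts) and 41.1% in OVMANA (38.6 to 43.6, of 1456). It held 14.3% in COV362 (7.4 to 27.7, of 47), 77.8% in SK-OV-3 (65.9 to 86.6, of 59) and 87.1% in OVTOKO (66.7 to 95.3, of 22). The IGROV-1 libraries gave 26.7% and 32.6% on the PromethION and 28.9% and 30.0% on the MinION. How reads compatible with several of these transcripts were divided is not recorded, and reads that stop short of the upstream exons could have been counted to ENST00000393676. The part of such reads in these shares was not tested. All 4 IGROV-1 libraries lay between 26.7% and 32.6%, apart from OVKATE below and from OVMANA, SK-OV-3 and OVTOKO above.

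**Figure D2:**
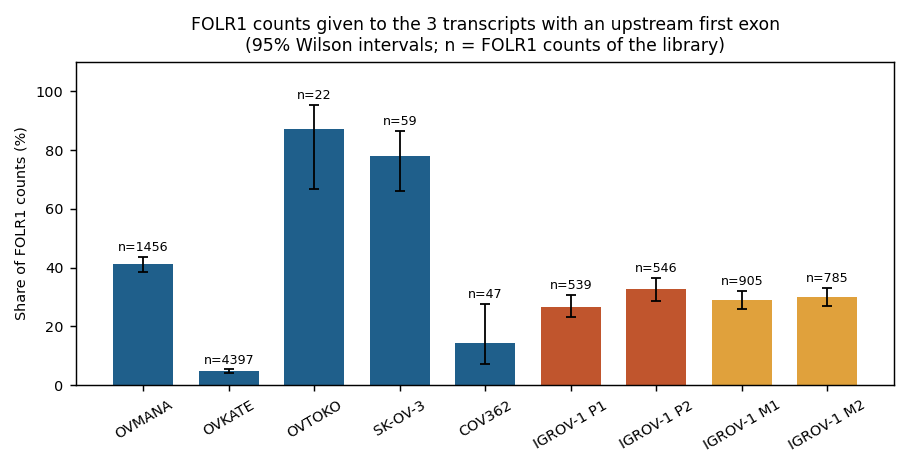
Share of FOLR1 counts (percent) given to the 3 transcripts with upstream first exons, for each library with 20 or more FOLR1 counts; bars carry 95% Wilson intervals and the number of FOLR1 counts. The share is 4.7% in OVKATE, 26.7% to 32.6% in the 4 IGROV-1 libraries, and 77.8% and 87.1% in SK-OV-3 and OVTOKO, over 59 and 22 counts.

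Differential usage was tested by edgeR over 4730 genes with 2 or more tested transcripts, against IGROV-1 PromethION. OVKATE was called for FOLR1 at an adjusted p of 1.7e-06, where 4.97% of genes were called, and the call held in 7 of 7 alternatives (adjusted p 2.3e-08 to 0.0032). The other lines missed the threshold, with edgeR adjusted p-values of 0.11 in SK-OV-3, 0.18 in OVTOKO, 0.19 in OVMANA, 0.2 in COV362 and 0.75 in COV504. The share of all genes with a usage call was 2.07% in SK-OV-3, 1.35% in OVTOKO, 2.75% in OVMANA, 2.98% in COV362 and 2.56% in COV504. SLC34A2 was not called in any line (adjusted p 0.12 to 1). For MSLN, MUC1 and WFDC2 the IGROV-1 side had at most 1 count, so this test has nothing to compare there.

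**Figure D3:**
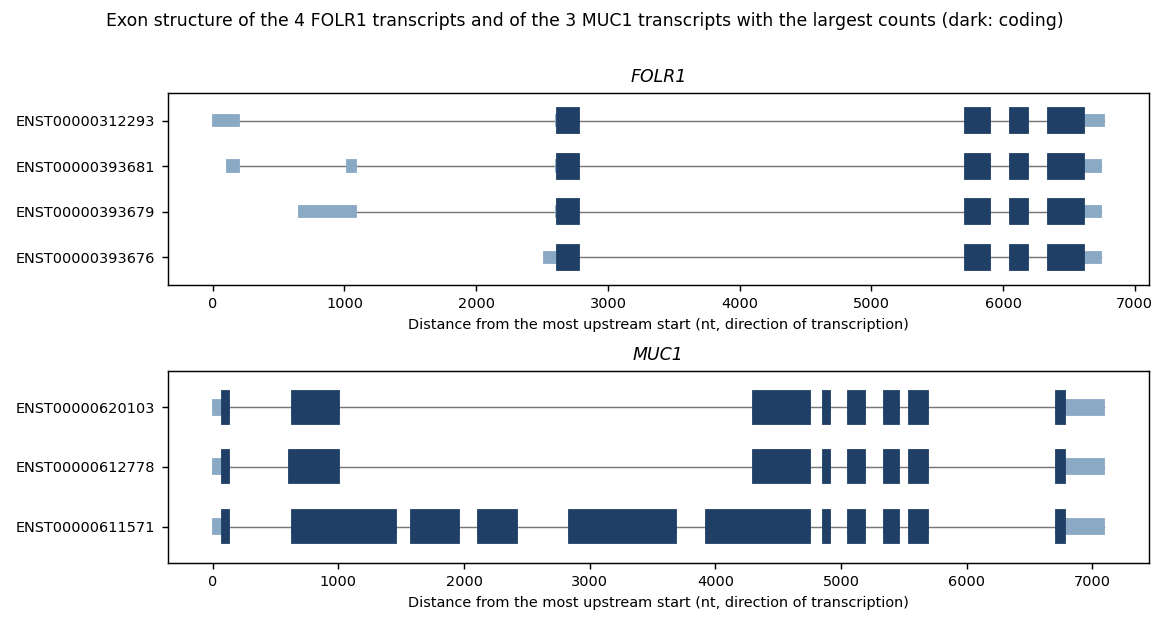
Exons of the 4 FOLR1 transcripts and of the 3 MUC1 transcripts with the largest counts, by distance in bases from the most upstream start in the direction of transcription; dark boxes are coding and light boxes noncoding. The FOLR1 transcripts share their coding exons, and ENST00000393676 starts 2518 bases downstream; ENST00000620103 of MUC1 skips 3291 bases that ENST00000611571 holds partly in coding exons.

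MSLN counts were divided over 4 transcripts, of which 3 share a coding sequence of 1866 bases. The leading transcript ENST00000566549 held 73.8% of the counts in OVMANA (69.1 to 77.8), 70.8% in OVKATE (67.1 to 74.2), 52.6% in COV362 (46.1 to 59.4) and 53.3% in COV504 (37.3 to 67.5). OVMANA and OVKATE lay above COV362 by more than their counting intervals, and COV504 with 38 counts overlapped COV362. ENST00000545450, with the same coding sequence, held 13.7%, 20.9%, 32.7% and 29.7% in the same order. ENST00000382862, which carries the 24 added bases printed above, held 10.3% in OVMANA (7.7 to 13.7), 5.3% in OVKATE (3.8 to 7.3), 7.4% in COV362 (4.7 to 11.9) and 6.1% in COV504 (1.5 to 17.3). The form with 8 extra codons was thus a minor form in every line with 20 or more MSLN counts, and the OVMANA and OVKATE intervals were narrowly apart.

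MUC1 counts fell mainly on ENST00000620103, with 76.5% in OVMANA (71.5 to 80.6), 89.4% in COV362 (86.6 to 91.8) and 88.6% in COV504 (79.5 to 93.8). This transcript joins across 3291 bases within the repeat region. Transcripts with the longer second exon, which adds the 27 bases printed above, held 16.2% in OVMANA (12.6 to 20.5), 4.6% in COV362 (3.2 to 6.7) and 11.2% in COV504 (6.2 to 20.5, of 78 counts). The OVMANA and COV362 intervals did not overlap. ENST00000611571, which holds the 19 repeat copies and has 4170 bases, had 7.2% in OVMANA (4.9 to 10.5), 6.0% in COV362 (4.2 to 8.2) and 0 counts of 78 in COV504 (upper Wilson bound 4.7%). The number of repeat copies differs between people, and the table holds only the annotated lengths, so the split between these forms says nothing of the repeat length in a line.

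**Figure D4:**
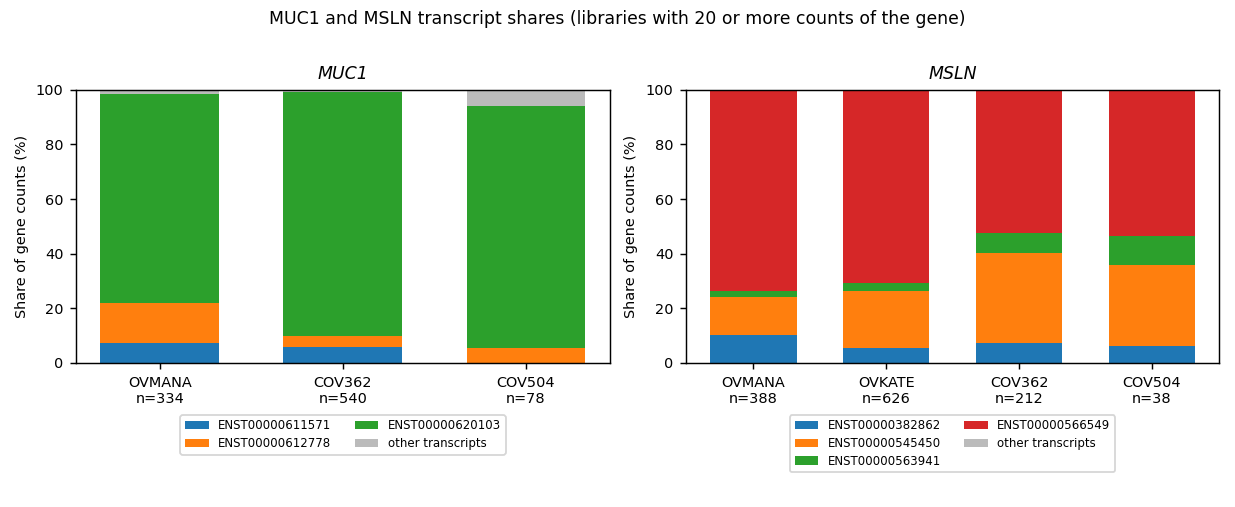
Shares of the MUC1 and MSLN gene counts (percent) held by each transcript that reached 5% in a library, for libraries with 20 or more counts of the gene; n is the number of counts. ENST00000620103 holds 76.5% to 89.4% of MUC1, and ENST00000566549 holds 52.6% to 73.8% of MSLN.

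In the other 6 genes nearly all counts fell on a single transcript. WFDC2 ENST00000372676 held 98.2% in OVKATE, 97.7% in COV362 and 98.3% in COV504. ENST00000339946, which lacks a 144-base exon, had 19.7 WFDC2 counts over all 10 libraries. SLC34A2 ENST00000382051 held 97.6% to 100% in every library with 20 or more counts. VTCN1 ENST00000369458 held 97.4% of the 248 counts in OVKATE, and ENST00000328189, which lacks a 348-base exon, had 10.2 VTCN1 counts over all libraries. EPCAM ENST00000263735 held 99.8% to 100% in the 5 lines with 20 or more counts. MUC16 and SLPI have a single transcript in the table.

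By the rule of likeness, the 3 genes whose log2(CPM + 1) pattern over the 7 lines had the highest Pearson correlation with each antigen gene were listed, from 9337 genes. The coefficients rest on 7 points and are a description. The points were the single PromethION library of each other line and the mean of the IGROV-1 PromethION libraries. For MSLN they were NPR1 (r = 0.988), TIMP3 (0.985) and SH3YL1 (0.983). TIMP3, a metalloprotease inhibitor, was at 258.1 CPM in OVMANA, 407.5 in OVKATE, 64.3 in COV362 and 55.6 in COV504, with 0 in OVTOKO. For WFDC2 they were LAP3 (0.985), SELENBP1 (0.985) and ARMCX2 (0.984). SELENBP1, a selenium-binding protein, was at 161.7 CPM in OVKATE, 94.4 in COV362 and 16.5 in COV504, and at 0 in OVMANA, OVTOKO and IGROV-1. For SLPI they were RBX1 (0.987), ITGA3 (0.976) and LGALS3 (0.975). ITGA3, an integrin subunit, was at 74.8 to 246.3 CPM in the 6 lines and at a mean of 3.0 CPM in IGROV-1. SLPI and LGALS3 were both at 0 in IGROV-1, and the part of this single point in the SLPI coefficients was not tested.

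For the remaining antigens the leading genes included PIK3R4 (0.975) and TCEA3 (0.970) for MUC16, and were SLC12A8 (0.963), CXorf40B (0.937) and OASL (0.930) for MUC1. They were UBALD2 (0.970), PDGFB (0.968) and SLC8B1 (0.956) for EPCAM, COX7C (0.985), TAF4 (0.968) and ATP5B (0.957) for FOLR1, and ZNF316 (0.983), LIN52 (0.960) and ISCA2 (0.956) for SLC34A2. A high coefficient does not mean a wide range: COX7C lay between 689.2 and 1501 CPM over the 7 lines, RBX1 between 134.6 and 229.5, LAP3 between 46.5 and 108.3, and ZNF316 between 7.09 and 14.8. VTCN1 was above 10 CPM in a single line and was not compared.

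The genes around the antigens were taken from lists of relatives and partners and tested in the same edgeR fits. As with the antigen genes, a listed gene at or near 0 in IGROV-1 passed the filter through the lines where it is high. Over all genes tested, 18.2% to 26.8% were called higher and 15.9% to 22.4% lower in a line. Among mucins, 4 of 17 measured alone passed the filter, and MCAM, a cell adhesion molecule once numbered with the mucins, was called higher in 5 lines. It was at 152.8 CPM in OVKATE, 31.3 in COV362, 19.1 in COV504, 6.95 in OVMANA and only 2.53 in SK-OV-3. The IGROV-1 libraries had 0, 0, 0 and 0.309 CPM of MCAM. CD164, a sialomucin, was lower in OVKATE (119.7 CPM) and COV362 (130.9) and higher in SK-OV-3 (381.9) and COV504 (316.3), against 213 ± 0.371 CPM (SD, n = 2) in IGROV-1 PromethION. The gel-forming mucins and most membrane mucins did not pass the filter, and MUC4 was called in OVKATE alone, at 5.94 CPM.

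Of the whey acidic protein domain genes and their chromosome 20 neighbours, 4 of 22 passed the filter. SDC4, a syndecan between SLPI and WFDC2, was higher in all 6 lines, at 143.3 to 312.1 CPM against 34.6, 41.7, 29.2 and 47.9 in IGROV-1 (edgeR adjusted p 4.6e-05 to 0.001). PIGT, a subunit of the enzyme that attaches lipid anchors, was also higher in all 6 lines, at 45.4 to 116.1 CPM against 26.9 to 34.9 in IGROV-1 (adjusted p 0.0001 to 0.035). Unlike SLPI, both were present in IGROV-1. ANOS1, another gene with a whey acidic protein domain, was at 9.40 CPM in OVKATE and 14.5 in COV362, the lines with the most WFDC2. It was at 0 in all other libraries and passed the filter only through those lines, so its calls there say no more than the levels.

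B7 family ligands related to VTCN1 had 8 of 15 tested. OVMANA had 4 lower (50%, beside 16.5% of all genes) and none higher. OVTOKO had 4 higher (50%, beside 18.2%), COV504 5 (62.5%, beside 24%), COV362 3 (37.5%, beside 23.7%) and SK-OV-3 1 (12.5%, beside 22%), with none lower in these 4 lines. OVKATE had 2 higher and 2 lower (25% each, beside 26.8% and 22.4%). BTN3A2, a butyrophilin, was at 0.534 CPM in OVMANA and 53.8 in OVTOKO against 10.9 ± 0.346 (SD, n = 2) in IGROV-1 PromethION. VSIR, an inhibitory ligand, was at 163.7 CPM in OVKATE, the line with the most VTCN1, against 4.27 and 10.7 CPM in IGROV-1 PromethION (edgeR adjusted p 7.7e-05).

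The folate genes related to FOLR1 had 16 of 18 tested, and they were called in both directions, with 3 to 6 higher (18.8% to 37.5%) and 0 to 5 lower (0% to 31.2%) in a line, beside 18.2% to 26.8% and 15.9% to 22.4% of all genes. The widest gaps to a line's own share were 37.5% higher in COV362 (beside 23.7%), 31.2% lower in SK-OV-3 (beside 19.8%) and 0% lower in OVTOKO (beside 15.9%). SHMT1, the cytosolic serine hydroxymethyltransferase, was called in all 6 lines, lower in OVMANA (14.4 CPM) and SK-OV-3 (21.8) and higher in the other 4 (71.7 to 100.4) than the 36.0 ± 1.68 CPM (SD, n = 2) of IGROV-1 PromethION. FPGS, which adds glutamates to folates, was higher in 4 lines, with 61.8 CPM in SK-OV-3 against 13.7 ± 3.58 in IGROV-1 PromethION. The other lines called for FPGS were COV362 (36.0 CPM), COV504 (32.5) and OVTOKO (26.6). The IGROV-1 MinION libraries had 29.2 and 22.25 CPM of FPGS, and OVTOKO lay between them. The median log2 change of the list lay between -0.20 and 0.21, beside -0.01 to 0.04 for all genes.

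EPCAM partners and cleaving enzymes had 14 of 15 tested, with 5 to 9 higher (35.7% to 64.3%, beside 18.2% to 26.8% of all genes) and 2 to 4 lower (14.3% to 28.6%, beside 15.9% to 22.4%) in a line. SPINT1, a protease inhibitor of epithelia, was higher in all 6 lines, from 6.36 CPM in OVTOKO to 135 in OVKATE against 1.28, 0, 1.09 and 0.618 in IGROV-1 (edgeR adjusted p 1e-05 to 0.02). CD44, an adhesion receptor reported to associate with EPCAM, had 0 counts in OVMANA and OVKATE, the lines with the most EPCAM, and 426.6 to 657.3 CPM in OVTOKO, SK-OV-3, COV362 and COV504. In IGROV-1 CD44 was at 22.2, 52.8, 18.3 and 50.4 CPM, and edgeR called it in all 6 lines (adjusted p 0.00036 to 0.01).

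**Figure D5:**
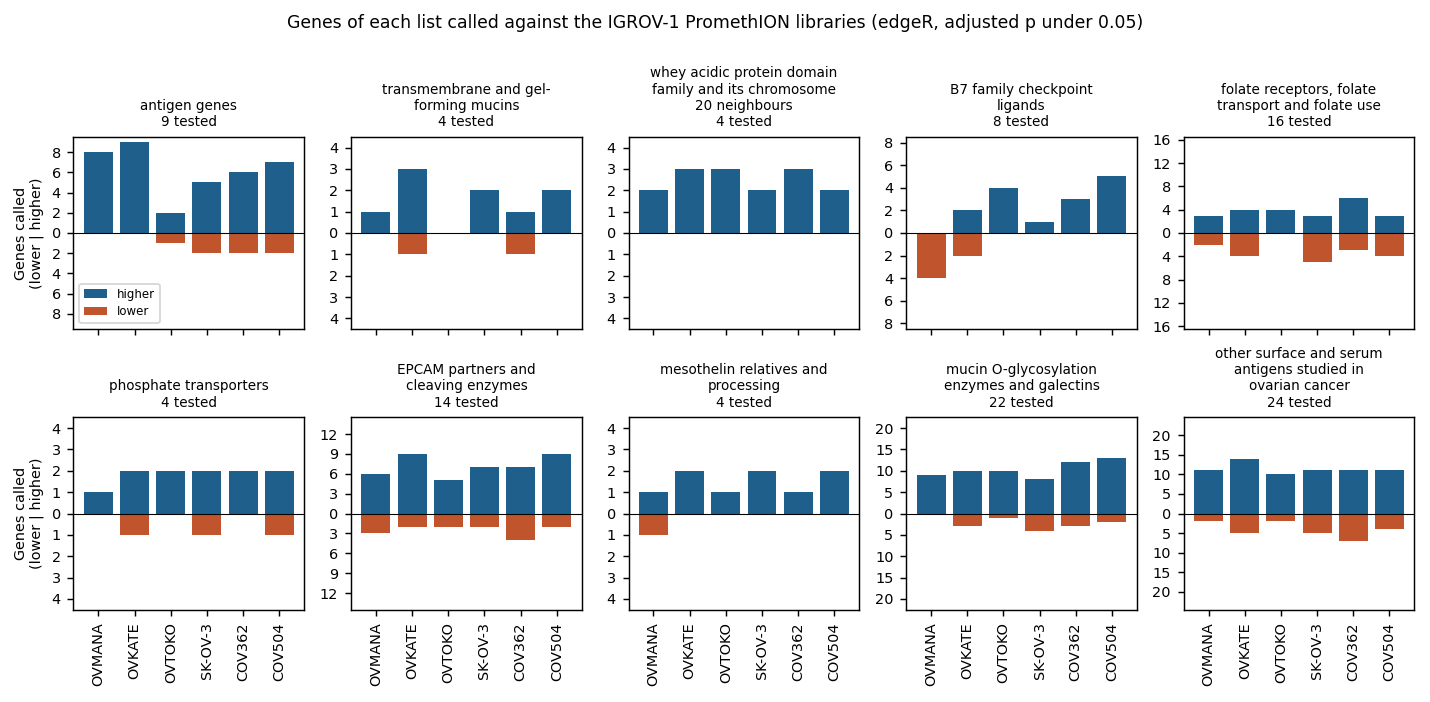
Number of genes of each list called higher (above 0) or lower (below 0) in each line against the IGROV-1 PromethION libraries by edgeR at an adjusted p under 0.05; panel titles give the number tested. The 9 antigen genes are called higher 8 and 9 times in OVMANA and OVKATE and 2 times in OVTOKO.

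Enzymes of mucin O-glycosylation and galectins had 22 of 24 tested, of which 8 to 13 were higher (36.4% to 59.1%, beside 18.2% to 26.8% of all genes) and 0 to 4 lower (0% to 18.2%, beside 15.9% to 22.4%) in a line. LGALS3, the galectin that binds mucin glycans, had 0 counts in all 4 IGROV-1 libraries, as SLPI did, and 159.8 to 1229 CPM in the other lines (edgeR adjusted p 2.5e-06 to 1.3e-05). GALNT14, which starts O-glycan chains, was at 46.5 CPM in OVMANA and 44.7 in COV362, the lines with the most MUC1, and at 40.5 in OVTOKO, which had 3 MUC1 counts. Across the 6 lines the median log2 change of this list lay between 0.35 and 1.78, beside -0.01 to 0.04 for all genes.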

How the data were processed

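Long-read RNA libraries of 7 ovarian cancer cell lines were analysed from the deposited tables. For each library the authors deposited estimated counts per transcript, aligned with minimap2 2.24-r1122 to GRCh38 per the submitters' processing notes. The quantification tool's settings, annotation release, filters and use of strand, each not given in the sources used here, could not be checked, nor could how reads that fit several transcripts were divided. The authors also deposited a TPM per transcript, which equalled the CPM and is not divided by length. Counts were summed per gene and rounded. All tests used edgeR 4.0.16 in R 4.3.3 (TMM, filterByExpr, quasi-likelihood tests, diffSpliceDGE with Simes p-values), with Benjamini-Hochberg adjustment over all features tested. Instruments were fitted on the 4 IGROV-1 libraries and lines on all 10 libraries, with 2 residual degrees of freedom each. DESeq2 1.42.0, RLE normalization, no filter, PromethION libraries only, identifiers that join several genes left out, and each IGROV-1 library left out were the alternatives. The steps were tested on simulated data. Shares carry 95% Wilson intervals and levels exact Poisson intervals. The replicates of each IGROV-1 pair differed by more than counting noise (chi-square per degree of freedom 4.36 over 9673 genes and 6.73 over 10200 genes).

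The members, gene lists and tests were chosen with earlier results of these data known. Named were the 9 antigen genes, transcripts with 5% or more of a gene's counts, the 3 genes most correlated with each antigen gene (1 for MUC16 is not reported here), and of each list the 3 genes called in most lines. Genes joined with others under 1 identifier, such as PSENEN and SPINT2, were left out of the lists.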

Additional observations from a re-analysis of the deposited data

How the results depend on the processing

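The counts of antigen genes called per line, of transcript usage calls, of detected genes (50 of 63 pairs of gene and line) and of leading transcripts with 90% or more (26 of 38 pairs) stayed within 1.5 times their reported values under every alternative run. The 26 pairs include those of MUC16 and SLPI, whose shares are fixed at 100%. Between instruments, 0 antigen genes, transcripts or usage changes were called under any of them. Of 48 log2 changes with more than 3 counts on at least 1 side, 40 kept their side of the threshold under all alternatives. The other 8 were SLC34A2 in OVMANA, MUC1 and MSLN in SK-OV-3, and VTCN1 in OVMANA and COV504, whose calls were lost under some alternative, and VTCN1 in OVTOKO, SK-OV-3 and COV362, whose calls were gained when a PromethION replicate of IGROV-1 was left out (VTCN1 had 10 and 2 counts in those 2 libraries); otherwise the cause was not tested. No call changed direction. Over the whole table, a replicate block between instruments raised the called genes from 82 to 1979, with 0 antigen genes among them. Deviations of replicates 1 and 2 correlated between instruments (r = 0.49 over 7894 genes). The labels do not say that a number marks a shared batch, and 2 pairs are too few to tell. The reported instrument and line tests used no replicate block, so they treat the 2 IGROV-1 pairs as independent. Depth limits MUC16, VTCN1 and the low lines of MUC1 and MSLN, with 0 to 26 counts in most libraries.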

Other observations

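Phosphate transporters related to SLC34A2 had 4 of 7 genes tested. XPR1, the phosphate exporter, was higher in all 6 lines, at 29 to 51.2 CPM against 18.8, 18.5, 24.6 and 25 CPM in the 4 IGROV-1 libraries (edgeR with Benjamini-Hochberg adjustment, adjusted p 0.0011 to 0.041). SLC20A1, a sodium-phosphate cotransporter of another family, was at 174.2 CPM in SK-OV-3 and 59.6 CPM in COV504, the lines with 1 and 0 counts of SLC34A2, against 23.4 ± 6.45 CPM (SD, n = 2) in IGROV-1 PromethION. It was also higher in COV362 (85.4 CPM) and OVTOKO (41.1 CPM), and OVTOKO had as much SLC34A2 as IGROV-1. SLC25A3, the mitochondrial phosphate carrier, was lower in OVKATE, SK-OV-3 and COV504.

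Among mesothelin relatives and processing enzymes 4 of 8 genes were tested. FURIN, a protease that cleaves the mesothelin precursor, was higher in 5 lines, with 126.8 CPM in COV504 and 70.5 CPM in OVMANA against 17.6 ± 2.96 CPM (SD, n = 2) in IGROV-1 PromethION. Of 24 other surface and serum antigens tested, 10 to 14 were higher (41.7% to 58.3%, beside 18.2% to 26.8% of all genes) and 2 to 7 lower (8.33% to 29.2%, beside 15.9% to 22.4%) in a line. GDF15, a secreted stress cytokine, was at 1608 CPM in OVMANA and 4.95 CPM in OVKATE, and in IGROV-1 it was at 267.8 and 506.9 CPM on the PromethION and 272.8 and 548.1 CPM on the MinION. CD24, a glycosylated surface antigen, was at 3103 CPM in OVMANA and 1714 CPM in OVTOKO, above the 834.6 to 1218 CPM of the IGROV-1 libraries, and at 152.2 to 375.3 CPM in the other 4 lines. SDC1, a syndecan shed into serum, was higher in all 6 lines, at 23.5 to 318.6 CPM against 8.18 to 13.6 CPM. GDF15, SDC1 and CD24 were called in all 6 lines by edgeR (adjusted p 5.3e-06 to 0.046).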
